A study of Mus musculus with 14 samples.

Results

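Aortic valves of mice infused with angiotensin II (AngII) were compared with valves of untreated control mice (Ctrl) by bulk RNA sequencing. The comparison took the 4 AngII and the 4 Ctrl mice of a series of 14, and covered 19145 of 56941 listed genes, those whose counts averaged 10 or more across the 14 libraries. All mice were male C57BL/6J, 8 weeks old at the start, and all, controls included, ate the hypercholesterolemic Breslow Western Diet. AngII mice carried a subcutaneous osmotic pump that delivered 1000 ng/kg/min for 28 days. According to the deposited design text these mice lived for another 48 hours after the pumps were taken out, whereas the study's methods describe this for a subset, so the AngII values may include time after the infusion ended. The control mice are labelled untreated, the study calls the controls of its histology saline-treated, and no sham pump is described for them, so the surgery and the peptide cannot be told apart. The remaining 6 mice, given the HTR2B antagonist LY272015 alone (LY) or with AngII (AngII+LY), stood outside the contrast. They entered the count filter, the scaling of libraries, the GC correction described below and the estimate of the spread between mice. Nothing in the labels says how the mice were housed or processed together, and p-values measure only the spread between these mice. In bulk samples such as these, fewer cells of a type and less RNA per cell cannot be told apart.

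AngII is the effector peptide of the renin-angiotensin system, raises blood pressure through the AT1 receptor and drives fibrosis in vessels and heart. A valve leaflet consists of interstitial cells that make and turn over collagen, proteoglycan and elastic fibers, a covering of endothelial cells, and resident macrophages. Dissected leaflets can carry along smooth muscle and fat from the aortic root and heart muscle from the annulus, and markers of all these cells were therefore read beside the valve genes.

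Fold changes in this comparison ran along with the base composition of the genes, and some genes from both ends of that range are shown by sequence. The 5 stretches below are each 60 coding bases of the canonical transcript, read from the annotation of GRCm39, with G and C in capitals. The first 2 come from abundant nuclear protein-coding genes in the lowest of 10 equal bins of genes by GC content, and the last 3 from the most abundant in the highest bin. In each gene the stretch is the coding window whose GC content was nearest that of the whole transcript.
Dcn: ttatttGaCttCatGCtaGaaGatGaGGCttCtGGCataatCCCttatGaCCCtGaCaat
Uqcrb: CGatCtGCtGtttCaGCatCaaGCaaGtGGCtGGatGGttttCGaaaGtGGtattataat
Tcap: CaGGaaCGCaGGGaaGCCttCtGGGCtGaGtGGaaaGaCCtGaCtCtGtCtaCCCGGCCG
Crip2: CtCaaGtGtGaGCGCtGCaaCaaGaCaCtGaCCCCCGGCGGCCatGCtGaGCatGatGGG
Gnas: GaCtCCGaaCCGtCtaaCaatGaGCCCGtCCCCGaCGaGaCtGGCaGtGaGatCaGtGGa

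Dcn (decorin, a small proteoglycan that binds collagen; chr10:97315275-97358155) holds 24 G or C in its 60 bases, and Uqcrb (a subunit of respiratory complex III, chr13:67048655-67053443) holds 25. Tcap (telethonin, of the muscle sarcomere, chr11:98274637-98275779) and Crip2 (a LIM-domain protein, chr12:113103721-113109129) hold 37, and Gnas (the stimulatory G protein subunit, chr2:174126022-174188537) holds 35. Uqcrb had normalized counts of 22098, 33519, 28135 and 40925 in the Ctrl mice and of 54042, 42957, 112196 and 101548 in the AngII mice, so no AngII mouse overlapped a control (log2 fold change 1.32, standard error 0.35). After the GC correction described below its log2 fold change was 0.68 and the groups overlapped. Crip2 had a log2 fold change of -0.53 before and -0.06 after the correction. Dcn changed its sign, from 0.14 to -0.55. Of the transcript of Uqcrb, 72.2% is shared with other annotated genes in stretches of 50 bases, so its count depends on how shared reads were assigned.

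Libraries held between 20990655 (AngII 4) and 73128220 counts (AngII 2). Spearman's rho with the other 7 libraries over all tested genes had a median of 0.92 for AngII 4 and 0.936 for AngII 3, against 0.952 to 0.963 in the other mice. Ctrl 1 stood apart in its cell type markers, with 1.39% of nuclear counts on smooth muscle genes, and AngII 4 in platelet genes, and values without 1 of these mice are given beside the results that it moved most. Genes with any count numbered 22996 to 24234 in Ctrl and 19401 to 22996 in AngII mice. No label gives a sequencing date or batch.

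The slope of a library on GC content, the log2 change relative to the mean of all libraries per 10 percentage points of GC, was 0.22, 0.35, 0.37 and -0.01 in the Ctrl mice and -0.06, -0.24, -0.47 and -0.83 in the AngII mice. Every AngII mouse lay below every control, by 0.63 on average (difference of -0.63, exact two-sided permutation test, p = 0.0286, the smallest that 4 against 4 mice allow). In the same mice the GC content of nuclear counts was 50.5 to 51.4% in Ctrl and 48.4 to 50.3% in AngII. AngII 3 and AngII 4, which had the steepest slopes, also had the highest mitochondrial shares. In the LY mice the slope was 0.03 and 0.14, and in the AngII+LY mice, which also received AngII, it ranged from -0.16 to 0.25. Whether the slope belongs to the valves, to RNA quality or to the libraries was not tested.

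**Figure D1:**
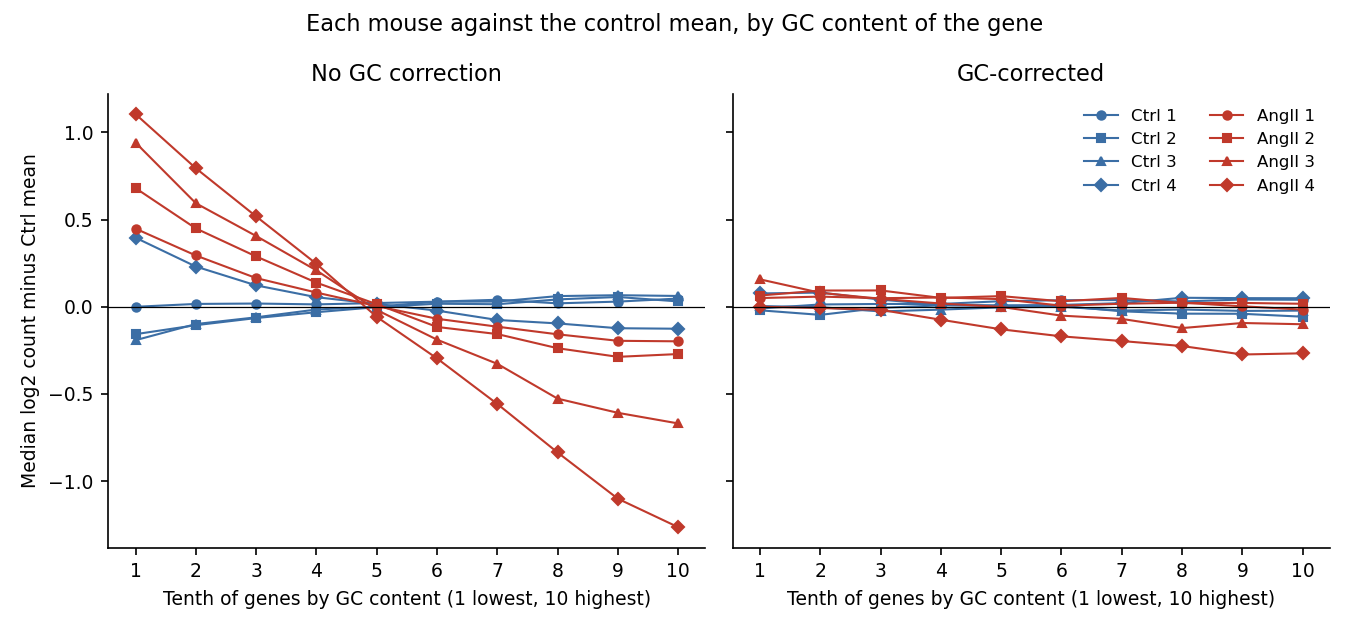
Median over genes of each mouse's log2 normalized count minus the Ctrl mean (vertical axis), for 10 equal bins of genes from the lowest to the highest GC content (horizontal axis), without (left) and with (right) the GC correction. Without it the 4 AngII lines fall from left to right, from 1.11 to -1.26 in AngII 4, and with it AngII 4 is at -0.27 in the highest bin.

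Over 19043 genes with a known GC content, log2 fold changes were lower at higher GC content (Spearman's rho = -0.551, across genes, which are not independent). The median log2 fold change was 0.86 in the lowest GC bin, where 790 genes were higher at an unadjusted edgeR p under 0.05 and 19 were lower. It was -0.56 in the highest bin, with 25 higher and 587 lower. Each library was therefore also corrected with a loess curve on gene GC content, and the results below are mostly given without and with this GC correction, in that order where 2 values stand together. With it the medians of these 2 bins were 0.13 and -0.11, and rho was -0.1. Transcript length ran along with fold change far less (rho = 0.0884, and 0.0046 with the correction), and not in 1 direction. In 10 equal bins by length the median was -0.01 in the shortest, -0.24 in bin 3 and 0.22 in the longest. With the correction these medians were 0.06, -0.05 and 0.09.

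The quasi-likelihood test of edgeR called 0 genes without and 0 with the GC correction, where a call needed a p under 0.05 after Benjamini-Hochberg adjustment and a log2 fold change beyond 0.5 in either direction. The smallest adjusted p was 0.0573, and 0.133 with the correction. This 0 is not stable: 1726 genes were called without AngII 1, 799 without Ctrl 4, 360 without AngII 2, 975 at a minimum mean count of 100, and 2648 (13.8% of the genes) by DESeq2, with 9.15% higher and 4.69% lower. With the GC correction no edgeR alternative called a gene and DESeq2 called 533 (2.80%), with 2.03% higher and 0.772% lower. No gene below therefore passes the main test, and "higher" and "lower" describe the direction of values only.

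An unadjusted p under 0.05 was reached by 4815 genes, 25.2% of those tested, with 2575 higher (13.4%) and 2240 lower (11.7%) in AngII. With the GC correction 2549 genes reached it (13.4%), 1469 higher (7.71%) and 1080 lower (5.67%), and 1125 higher and 782 lower genes were counted both times in the same direction. AngII and Ctrl mice did not overlap in 2876 genes (15.0%), 1429 higher (7.46%) and 1447 lower (7.56%), and with the correction in 1544 (8.11%), 856 higher (4.50%) and 688 lower (3.61%). The log2 fold change of 3568 genes changed its sign with the correction. These shares are the background for the counts within each class and list below. The lists were written with earlier results of these data known, so they are described by counts and medians, beside a median of -0.06 over all genes (-0.01 with the correction).

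Mitochondrially encoded RNA was higher in AngII valves. The mitochondrial genome encodes 13 subunits of the respiratory chain, 2 rRNAs and 22 tRNAs, transcribed as long precursors from both strands. Mitochondrial genes took 4.00, 5.28, 5.49 and 7.52% of the counts in Ctrl mice and 11, 9.83, 24.7 and 25.5% in AngII mice. The groups did not overlap, and AngII 3 and AngII 4 had far higher shares than the other AngII mice (difference of 12.2 percentage points, exact two-sided permutation test, p = 0.0286). With the GC correction the difference was 5.85 points and the groups overlapped (exact permutation p = 0.0857). The share was 8.62 and 9.76% in the LY mice, between the highest control and the lowest AngII mouse. In the AngII+LY mice it ranged from 10.1 to 20.2%, above every control.

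**Figure D2:**
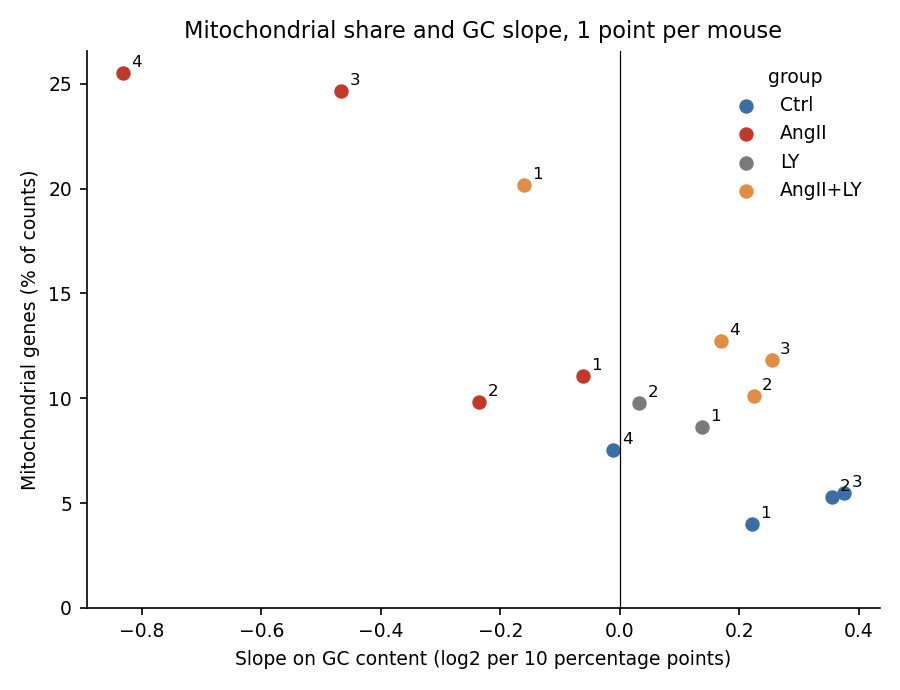
Share of counts on mitochondrial genes in percent (vertical axis) against the slope of the library on GC content in log2 per 10 percentage points (horizontal axis), 1 numbered point for each of the 14 mice. AngII 3 and AngII 4 lie at the upper left, with 24.7 and 25.5% of counts on mitochondrial genes, and the Ctrl mice at the lower right, with 4.00 to 7.52%.

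All 13 mitochondrial protein-coding genes were higher at an unadjusted p under 0.05, with a median log2 fold change of 1.70, and 8 of the 13 with the GC correction, with a median of 0.80. Without AngII 3 and AngII 4 the uncorrected median was 0.76. Among them mt-Co1, the catalytic subunit of complex IV, had 417290, 670208, 630782 and 825965 normalized counts in Ctrl and 1450390, 1209020, 4364050 and 4185380 in AngII mice, and its groups did not overlap with or without the correction (log2 fold change 2.14 and, corrected, 1.33). mt-Cytb of complex III behaved alike (2.06 and 1.19), whereas mt-Nd1 of complex I (1.79 and 0.86) no longer separated the groups after the correction. mt-Nd6, the only protein-coding gene on the other strand, had a log2 fold change of 1.51 and, corrected, of 0.32. The rRNAs mt-Rnr2 and mt-Rnr1 had log2 fold changes of 2.37 and 1.57, and of 1.20 and 0.46 with the correction, and without AngII 4 the uncorrected value of mt-Rnr2 was 1.71.

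Of the 22 mitochondrial tRNA genes 8 had enough counts to be tested. Their median log2 fold change was 2.24, and 1.48 with the correction, with 7 and 6 of the 8 higher at an unadjusted p under 0.05. The 3 most abundant are shown as whole genes of GRCm39, read 5′ to 3′ on the minus strand, with G and C in capitals, because their low GC content (36.6, 33.8 and 36.4%) puts them in the lowest bin by GC content, where most genes had higher values in AngII mice.
mt-Tq: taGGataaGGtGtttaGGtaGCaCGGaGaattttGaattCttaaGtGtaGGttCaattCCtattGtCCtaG
mt-Tn: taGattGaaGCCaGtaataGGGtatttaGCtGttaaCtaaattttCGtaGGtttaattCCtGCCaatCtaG
mt-Tc: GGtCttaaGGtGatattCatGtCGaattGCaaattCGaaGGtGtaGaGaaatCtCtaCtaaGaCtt

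mt-Tq (tRNA for glutamine, chrM:3772-3842) had 127, 215, 221 and 309 normalized counts in Ctrl and 756, 533, 2659 and 1393 in AngII mice. No AngII mouse overlapped a control, and none did after the correction (log2 fold change 2.61 and, corrected, 1.62). mt-Tn (asparagine, chrM:5089-5159) and mt-Tc (cysteine, chrM:5192-5257) had log2 fold changes of 2.56 and 2.30, and of 1.44 and 1.34 with the correction, when their groups overlapped. mt-Tp had 78.1, 139, 196 and 151 normalized counts in Ctrl and 112, 127, 282 and 165 in AngII mice, which overlapped. These 4 genes lie on the minus strand, and since the strand setting of the counting is not given in the sources used here, their reads cannot be told apart from reads of the opposite strand.

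Nuclear genes for the same organelle had medians below 0, nearer to 0 with the correction, and their members lay in both directions. The 38 nuclear subunits of complex I had a median log2 fold change of -0.31 (-0.07 with the correction), with 6 higher and 7 lower at an unadjusted p under 0.05, and 4 and 0 with the correction. The 48 subunits of complexes II to V had a median of -0.28 (-0.04), with 6 higher and 6 lower, and 6 and 2 with the correction. Without Ctrl 2 both uncorrected medians were -0.07. The 78 mitochondrial ribosomal proteins had a median of -0.21 (-0.18), with 9 higher and 21 lower, and 6 and 13 with the correction. The 82 cytosolic ribosomal proteins, whose median was -0.29, came to -0.05 with the correction.

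Several other gene classes had medians nearer 0 after the correction. The 371 zinc finger genes named Zfp, mostly transcription factors of low GC content, had a median log2 fold change of 0.38 with 107 higher and 27 lower genes, and of 0.07 with 27 higher and 12 lower after the correction. Transcripts still to be experimentally checked (TEC, 571 genes) went from a median of 0.88 to 0.37, while the 2263 long noncoding RNAs had a median of 0.13 in both forms. The noncoding RNAs with the largest counts had positive log2 fold changes with and without the correction. Malat1, a nuclear noncoding RNA, had 12376, 12601, 10705 and 22839 normalized counts in Ctrl and 22266, 33559, 70119 and 76984 in AngII mice. Its lowest AngII mouse lay just under its highest control, and its log2 fold change was 1.79, or 1.32 corrected. Neat1, the scaffold of nuclear paraspeckles, did not overlap between groups either way (0.91 and 0.79).

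Histone genes had higher values in AngII mice in both forms. Of 31 tested core and linker histone genes 10 were higher and 0 lower at an unadjusted p under 0.05, and 14 and 0 with the correction, with medians of 0.81 and 0.73. H2bc4, a replication-dependent H2B gene, had 5643, 5337, 4690 and 6720 normalized counts in Ctrl and 7184, 8131, 12347 and 22639 in AngII mice, without overlap (log2 fold change 1.17 and, corrected, 1.16). The linker histone H1f2 had 7401, 6577, 6948 and 6896 in Ctrl and 8580, 8277, 9499 and 19191 in AngII mice, also without overlap (0.71 and 1.19). Both were highest in AngII 4, and without that mouse the median of the class was 0.35 and the log2 fold change of H1f2 was 0.34. H2bc21, chosen after its values were seen, had 778, 701, 848 and 879.8 in Ctrl and 1223, 1596, 1307 and 1515 in AngII mice, without overlap in either form (0.81 and 0.51). The 22 cell cycle genes had a median of -0.13, with 1 higher and 2 lower, and of -0.14 with the correction.

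The 13 tested microRNA hairpins had a median log2 fold change of 1.0, and of 1.20 with the correction, with 5 and 6 higher and 0 lower. These are reads of longer RNA over the hairpin locus, not of mature microRNA. The mature sequences of the pair discussed here are given from RefSeq (GRCm38.p6), with the seed, bases 2 to 8, in capitals, to show that the seeds differ.
mmu-miR-703: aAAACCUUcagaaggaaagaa
mmu-miR-6236: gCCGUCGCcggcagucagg

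Mir703, whose hairpin has a GC content of 31.2%, had 233, 174, 147 and 445 normalized counts in Ctrl and 734, 864, 2024 and 1638 in AngII mice. Its groups did not overlap, and its log2 fold change went from 2.39 to 1.20 with the correction. Mir6236, at 56.1% GC, had 2411, 3451, 2414 and 2281 in Ctrl and 3978, 3914, 4981 and 3229 in AngII mice, which overlapped before the correction and not after it (0.61 and 1.07). The hairpin of Mir703 lies on the strand opposite to Cfap299, and that of Mir6236 opposite to Gm39429, so unstranded reads of those genes could enter the counts. Gm55094 (0.94 and 1.36), within Peak1, has the same sequence as 2 other hairpins and its reads cannot be placed on 1 of them.

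**Figure D3:**
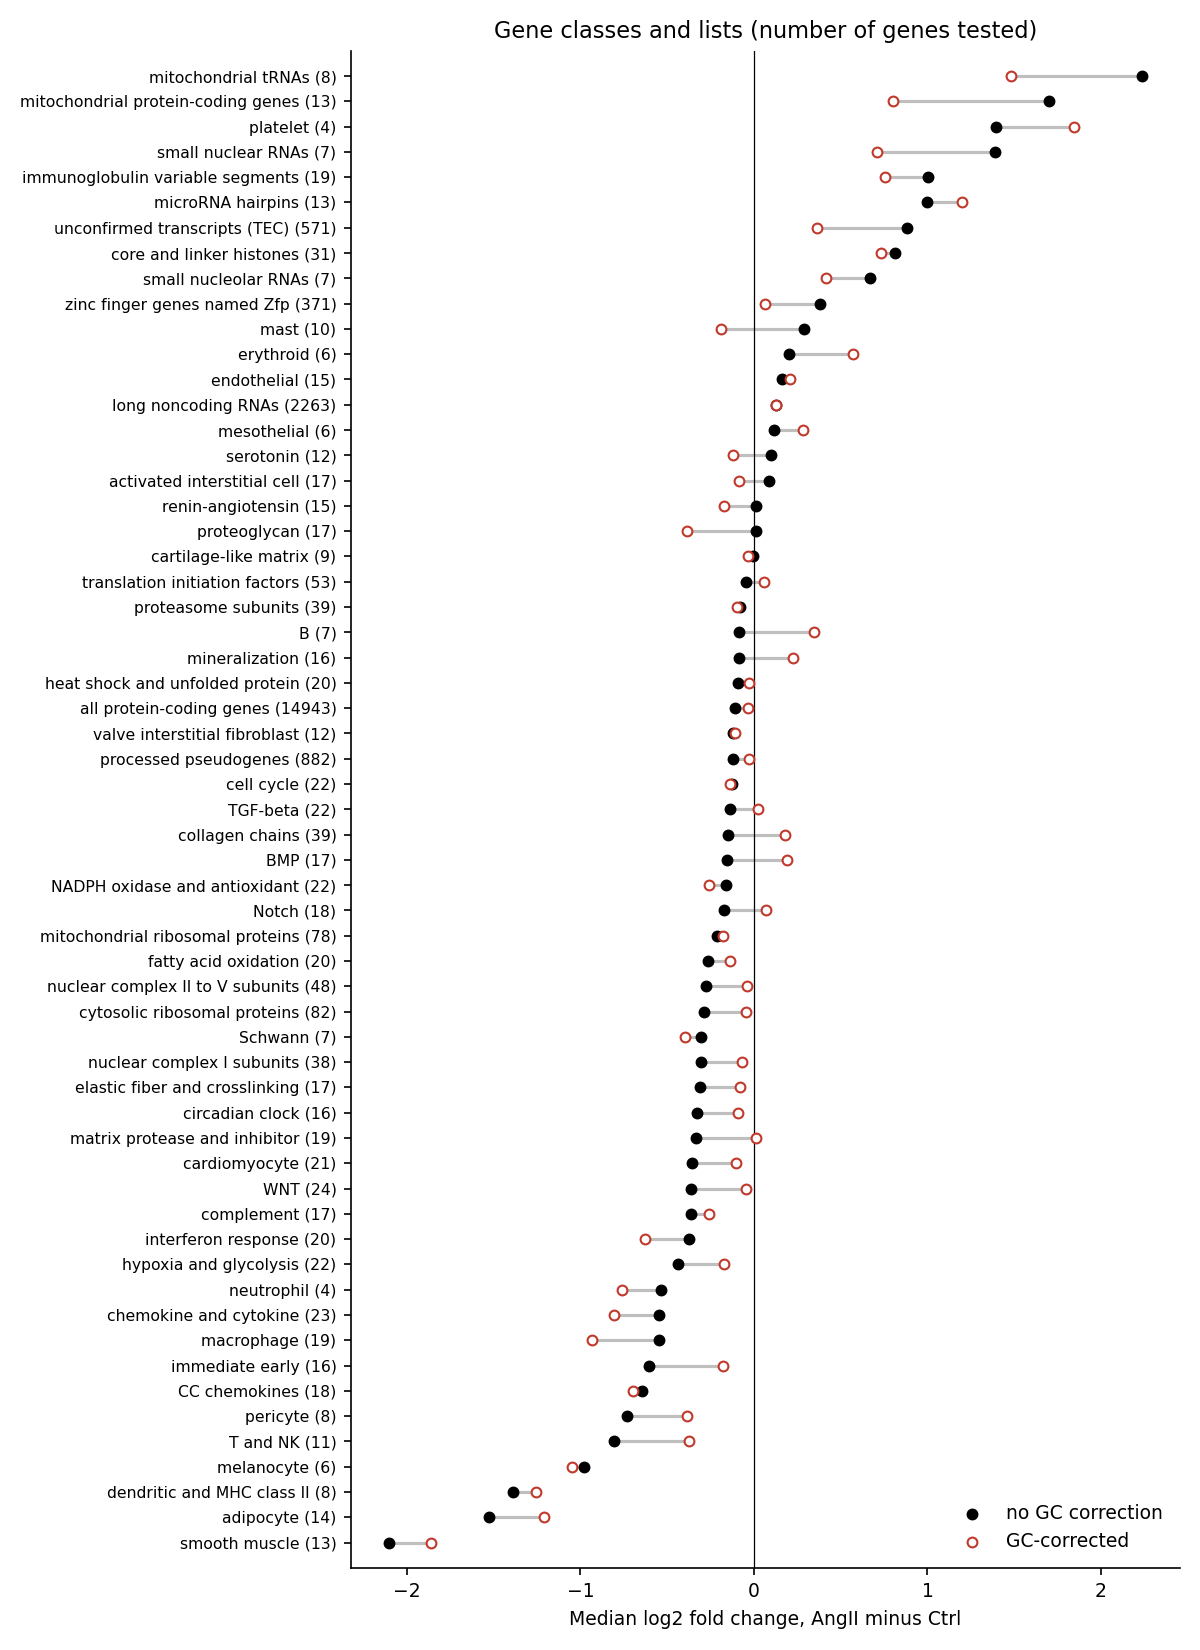
Median log2 fold change of AngII minus Ctrl (horizontal axis) of each gene class and list, without (filled) and with (open) the GC correction, with the number of genes tested in brackets. Mitochondrial tRNAs (2.24 and 1.48) and protein-coding genes (1.70 and 0.80) lie at the top, and adipocyte (-1.53 and -1.21) and smooth muscle markers (-2.10 and -1.86) at the bottom.

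Macrophage markers were lower in AngII valves, but not all of them. Of the 19 macrophage genes 8 were lower and 0 higher at an unadjusted p under 0.05, without as with the GC correction, and 5 had no overlap each time. The median log2 fold change was -0.55, or -0.94 corrected, and -0.37 uncorrected without Ctrl 1. Together these genes took 0.0725 to 0.267% of nuclear counts in Ctrl and 0.0646 to 0.110% in AngII mice. C1qb, a chain of the complement starter C1q that tissue macrophages make, had 21712, 15205, 8308 and 4577 normalized counts in Ctrl and 4235, 4224, 3683 and 1949 in AngII mice. The groups did not overlap, though Ctrl 4 lay close to AngII 1 and AngII 2 (log2 fold change -1.82, standard error 0.40, edgeR adjusted p = 0.0573, corrected -1.52, and -1.41 uncorrected without Ctrl 1). C1qa (-1.86) and C1qc (-1.59) had the same order of mice within the controls, from Ctrl 1 down to Ctrl 4.

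The promoters of C1qb and C1qc are shown because these neighbouring genes on chromosome 4 had the same order of mice among the controls. Each spans 250 bases before and 50 after the annotated start (RefSeq, GRCm38.p6, minus strand, chr4:136886151-136886450 and chr4:136892865-136893164), with AGGAAGT or its reverse complement in capitals, a form of the core that ETS family factors such as PU.1 bind.
C1qb: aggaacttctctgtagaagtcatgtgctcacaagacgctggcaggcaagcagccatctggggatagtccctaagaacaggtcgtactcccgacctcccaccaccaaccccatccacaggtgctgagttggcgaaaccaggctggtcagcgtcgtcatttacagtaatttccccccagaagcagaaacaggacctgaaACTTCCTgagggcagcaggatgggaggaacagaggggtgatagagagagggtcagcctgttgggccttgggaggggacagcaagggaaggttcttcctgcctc
C1qc: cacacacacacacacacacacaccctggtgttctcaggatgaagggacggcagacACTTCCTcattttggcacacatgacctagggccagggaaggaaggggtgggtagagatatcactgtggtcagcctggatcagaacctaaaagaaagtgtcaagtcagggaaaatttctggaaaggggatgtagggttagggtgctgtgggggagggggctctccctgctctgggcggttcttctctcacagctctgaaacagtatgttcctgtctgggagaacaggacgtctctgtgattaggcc
Each promoter holds 1 copy, and of 32851 promoters of this length 9.35% hold the motif on either strand. The order from Ctrl 1 down to Ctrl 4 is not particular to the C1q genes. Shares of nuclear counts on macrophage, MHC class II, T and NK and smooth muscle genes fell in the same order. Any part of the promoters in it was not tested.

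Fcgr1, a high-affinity Fc receptor, had 543, 542, 164 and 139.9 normalized counts in Ctrl and 100.3, 103, 94.9 and 92.6 in AngII mice. Folr2, a marker of resident macrophages, had 198, 372, 164 and 92.6 in Ctrl and 40.3, 57.2, 64.9 and 62.9 in AngII mice. Of the transcript of Folr2 72.7% is shared with Gm10602. Neither gene overlapped between groups, with or without the correction (log2 fold changes of -1.83 for Fcgr1 and -1.88 for Folr2, corrected -1.65 and -1.67). Cd68 (-1.69) and the receptor for macrophage colony-stimulating factor Csf1r (-1.25) were lower with overlap. Other defining markers differed by less than their spread. Adgre1, which encodes F4/80, had 1878, 1048, 604 and 718 in Ctrl and 757, 1195, 2067 and 1529 in AngII mice, with a log2 fold change of 0.38 and of 0.22 corrected. Mrc1 had 0.28 and, corrected, -0.22, and Lyve1 had 0.51 and 0.12.

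MHC class II genes, which present antigen on dendritic cells, macrophages and B cells, were lower. Cd74, the invariant chain, had 74068, 36924, 14594 and 12476 normalized counts in Ctrl and 10083, 11847, 6418 and 4219 in AngII mice, without overlap (log2 fold change -2.08, corrected -1.67 with overlap). H2-Ab1 had 46784, 19932, 8625 and 8551 in Ctrl and 6543, 9535, 3437 and 3104 in AngII mice, which overlapped (-1.89 and -1.47). Ctrl 1 was the highest mouse in both, and without it the uncorrected log2 fold changes were -1.39 for Cd74 and -1.13 for H2-Ab1. Over the 8 genes of the list the median was -1.39, or -1.25 corrected, and without Ctrl 1 it was -0.49. Among 11 T and NK cell genes 1 was higher and 2 lower, with a median of -0.80 (-0.37 corrected, and -0.37 uncorrected without Ctrl 1). Cd3g of the T cell receptor complex had 106, 75.8, 73.5 and 49.5 in Ctrl and 12.4, 25.9, 2.4 and 0 in AngII mice, at low counts.

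Several chemokines and complement genes were lower, and the C1q genes described above with the macrophage markers are complement genes too. Of 23 chemokine and cytokine genes 1 was higher and 6 lower at an unadjusted p under 0.05, and 1 and 5 with the correction, with medians of -0.54 and -0.81. Ccl8, a chemokine for monocytes, had 1540, 2354, 959 and 504 normalized counts in Ctrl and 191, 409, 286 and 334 in AngII mice (log2 fold change -2.13, corrected -2.27). Ccl12 had 906, 1365, 589 and 408 in Ctrl and 249, 290.2, 286 and 311 in AngII mice (-1.52 and -2.20). Neither overlapped in either form. Cxcl14 was lower without overlap (-1.45 and -1.17), as was Csf1, the growth factor of macrophages, before the correction (-0.94 and -0.64). Ccl2, the main monocyte chemoattractant, went the other way with 693, 1674, 479 and 603 in Ctrl and 918, 1747, 1360 and 3474 in AngII mice, overlapping (1.12 and 0.57). Of 17 complement genes 7 were lower and 1 higher, with a median of -0.36, or -0.26 corrected. Uncorrected, this median ran from -0.82 without AngII 2 to -0.09 without AngII 3 and AngII 4. The higher gene was Cd55, an inhibitor of complement on the cell surface. Cd55 had 4993, 4080, 8488 and 17233 in Ctrl and 23745, 25125, 27119 and 51151 in AngII mice, without overlap (1.87 and 1.30), and 39.9% of its transcript shares stretches of 50 bases with Cd55b and another gene. The 20 interferon response genes had a median of -0.37, or -0.63 corrected, and it was 0.27 without Ctrl 2.

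**Figure D4:**
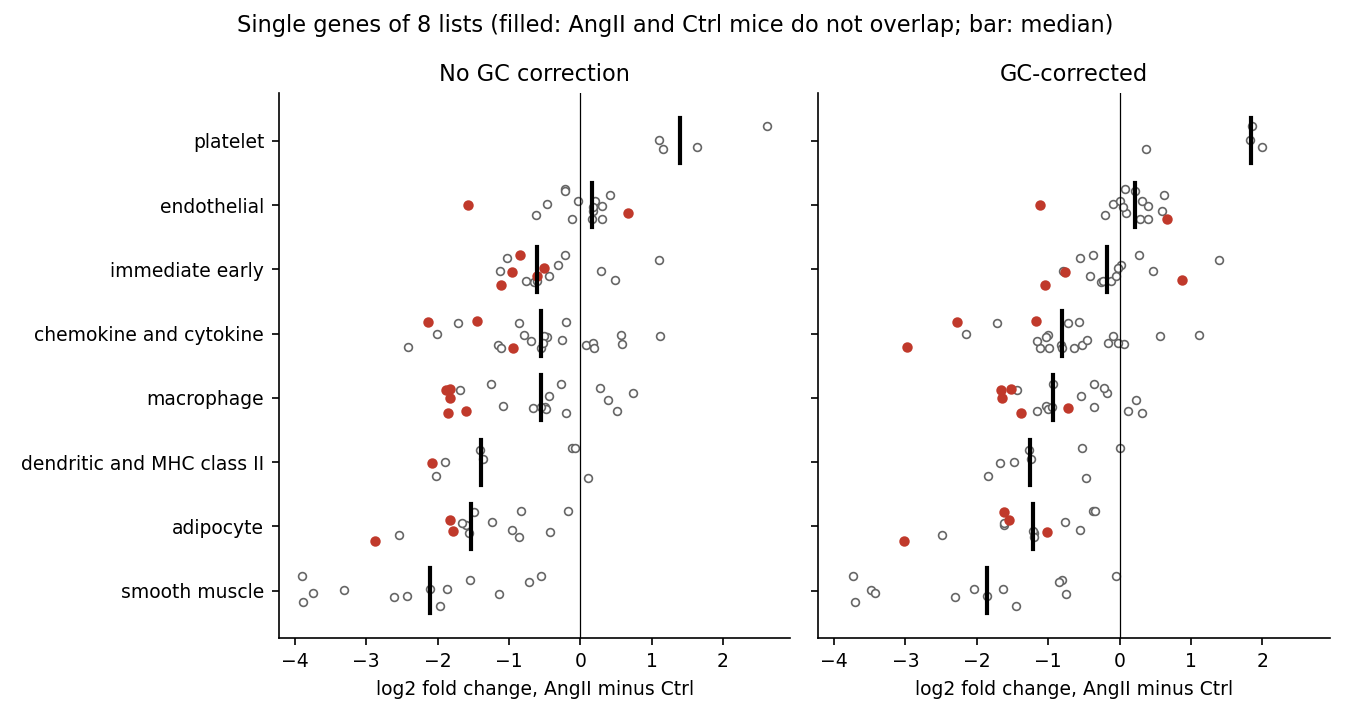
Log2 fold change of AngII minus Ctrl (horizontal axis) for each gene of 8 lists, without (left) and with (right) the GC correction, filled where AngII and Ctrl mice did not overlap and with a bar at the median. All 13 smooth muscle and all 14 adipocyte genes lie below 0 on both sides, while macrophage genes lie on both sides of 0, from Folr2 at -1.88 to Ccr2 at 0.73 without the correction.

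Smooth muscle genes had the lowest median of the lists, and the values of Ctrl 1 weighed heavily in it. All 13 were lower in the mean, 9 at an unadjusted p under 0.05 and 6 with the correction, with medians of -2.10 and -1.86, and 0 of the 13 separated the groups. Acta2, smooth muscle actin, had 284730, 39775, 5386 and 7455 normalized counts in Ctrl and 7076, 8653, 11961 and 6373 in AngII mice. Ctrl 1 and Ctrl 2 were high, while Ctrl 3 lay below every AngII mouse and Ctrl 4 among them. Myh11, smooth muscle myosin, had 78076, 10735, 929 and 377 in Ctrl and 464, 1142, 3104 and 2015 in AngII mice. Without Ctrl 1 the log2 fold change of Acta2 was -1.04 in place of -3.31, and that of the list -0.83. Sost, which encodes the WNT inhibitor sclerostin, had the same shape, with 12039, 766, 126 and 52.4 in Ctrl and 12.4, 202, 249 and 182 in AngII mice, and its log2 fold change of -4.33 was -0.97 without Ctrl 1.

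Adipocyte genes were lower in AngII mice and depended less on a single control. All 14 were lower in the mean, 8 at an unadjusted p under 0.05 and 7 with the correction, 3 and 4 had no overlap, and the medians were -1.53 and -1.21, or -1.09 uncorrected without Ctrl 1. Ucp1, the uncoupling protein of brown fat, had 5010, 2417, 5206 and 2743 normalized counts in Ctrl and 307, 529.9, 1037 and 205 in AngII mice, and its highest AngII mouse lay well under its lowest control (log2 fold change -2.88, corrected -3.02). Cidec, a lipid droplet protein, had 2773, 1495, 1696 and 1094 in Ctrl and 497, 492, 817 and 175 in AngII mice, without overlap (-1.82 and -1.55). Cidea (-1.56) and Adipoq, which encodes adiponectin (-1.49, or -2.39 without AngII 3), were lower with overlap. Fabp4, a fatty acid binding protein also made by endothelial cells and macrophages, had -0.42 and, corrected, -1.02, and its groups separated after the correction. How much fat was dissected with each valve was not recorded in the labels, and the part of such tissue in other results was not tested.

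Valve interstitial and endothelial markers as lists differed little. The 12 interstitial fibroblast genes had a median of -0.12, or -0.11 corrected, with 2 higher and 2 lower, and took 1.46 to 2.47% of nuclear counts in Ctrl and 1.51 to 2.19% in AngII mice. The 15 endothelial genes had a median of 0.16, or 0.21 corrected, with 1 higher and 1 lower, and without Ctrl 1 the uncorrected median was -0.12. The higher and the lower gene were Emcn (endomucin), with 7244, 5727, 9776 and 8992 normalized counts in Ctrl and 12748, 11940, 14318 and 11505 in AngII mice, and the tight junction gene Cldn5, with 1486, 1430, 2180 and 972 in Ctrl and 844, 411, 513 and 258 in AngII mice. Neither overlapped. With the correction Emcn came to 0.09 from 0.67, while Cldn5 had -1.11 after -1.58 and still separated the groups. The 21 cardiomyocyte genes had a median of -0.36, or -0.10 corrected, with 1 higher and 0 lower. Ctrl 2 had the highest share of nuclear counts on these genes of the 8 mice, 5.21%, and without it the median was 0.16.

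Platelet genes were high in 1 AngII mouse. Ppbp, a platelet chemokine, had 8628, 2600, 3206 and 5540 normalized counts in Ctrl and 10710, 5528, 10094 and 96502 in AngII mice. The log2 fold change of Ppbp was 2.62, and 0.81 without AngII 4. Itga2b, the platelet integrin, had 10283, 1193, 1149 and 2736 in Ctrl and 5037, 3415, 3607 and 35683 in AngII mice. AngII 4 was the highest mouse in all 4 genes of the list, whose median of 1.40 (1.84 corrected) was 0.13 without it. Slc6a4, the serotonin transporter, which platelets carry in large amounts, was likewise highest in AngII 4, with 324, 66.6, 89.7 and 111 in Ctrl and 363, 218, 169 and 2918 in AngII mice. The log2 fold change of 2.62 was 0.76 without AngII 4, with an overlap of the groups either way.

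Of 12 tested serotonin genes 3 were higher and 2 lower at an unadjusted p under 0.05, and 2 and 2 with the correction. Slc18a2, the vesicular monoamine transporter, had 785, 512, 904 and 1133 normalized counts in Ctrl and 1296, 1702, 1573 and 2548 in AngII mice, without overlap (1.09 and 0.61). Tph1, the first enzyme of serotonin synthesis outside the brain, was listed at 15.6, 46.7, 25.9 and 23 in Ctrl and at 0 in all 4 AngII mice. Its counts were low, and it passed the count filter only through mice outside the AngII group. Of the genes tested, 59 were at 0 in all 4 AngII mice and 20 in all 4 Ctrl mice. The receptor Htr2b was detected at 16.5, 51.7, 36.7 and 34.4 in Ctrl and at 88.9, 3.41, 28.8 and 0 in AngII mice, which overlapped. Of 15 renin-angiotensin genes 2 were higher and 1 lower. Agtr1a, the AT1 receptor, had 195, 397, 385 and 224 in Ctrl and 449, 418, 490.3 and 440.1 in AngII mice, which did not overlap, at a log2 fold change of 0.58 (short of an unadjusted p of 0.05) that was 0.39 with overlap after the correction. Lnpep, the aminopeptidase that binds angiotensin IV, was higher without overlap before the correction (1.26) and at 0.50 with overlap after it. Ace did not separate the groups (-0.52 and -0.17).

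Collagen chains as a class had a median near 0, while single matrix genes differed more. Of 39 collagen chains 6 were higher and 3 lower at an unadjusted p under 0.05, and 10 and 2 with the correction, with medians of -0.15 and 0.18, and of 0.13 uncorrected without Ctrl 1. The fibrillar collagens with the largest counts had log2 fold changes near 0, with 0.07 for Col3a1 and -0.38 for Col1a1 (0.29 and 0.06 corrected). Col8a1, a short-chain collagen of vessel walls, had 1762, 1469, 876 and 1449 normalized counts in Ctrl and 1871, 4305, 8576 and 7501 in AngII mice, with AngII 1 only just above the controls (log2 fold change 2.0, standard error 0.40, corrected 1.76). Col4a3, a basement membrane chain, had 982, 681, 944 and 1212 in Ctrl and 1681, 1547, 3468 and 2283 in AngII mice, again without overlap (1.23 and 1.34). Col5a2 and Col15a1, named after their values were seen, had 0.84 and 1.09, and 0.73 and 1.63 with the correction.

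Among 17 genes of activated interstitial cells 3 were higher and 4 lower, and 4 and 2 with the correction, with a median of 0.09 that was 0.51 without Ctrl 1. The lower ones included Acta2, which also belongs to smooth muscle. Postn, periostin, had overlapping groups (0.40 and 0.06), and Ccn2, connective tissue growth factor, had 0.42 and 0.52. Of 17 elastic fiber genes 2 were higher and 3 lower. Ltbp4, which binds latent TGF-beta, was lower without overlap (-1.07, corrected -0.69 with overlap), and Fbn1, fibrillin of the microfibrils, had 0.73 and 0.96. Of 17 proteoglycan genes 4 were higher and 0 lower, and 2 and 2 with the correction. Has1, a hyaluronan synthase, had 119, 189.9, 227 and 279 in Ctrl and 266, 573, 662 and 692 in AngII mice, with an overlap of 1 mouse (log2 fold change 1.43 and, corrected, 1.97). Cd44, the hyaluronan receptor, did not overlap (1.55 and 1.14). The protease inhibitor Timp1 (1.19 and 1.51) and the protease Adamts9 (1.18 and 1.24) were higher, and Mmp9, a gelatinase of leukocytes, was lower at low counts (-2.35 and -2.03).

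Of 16 mineralization genes 4 were higher and 1 lower, with or without the correction. Spp1, osteopontin, had 492, 1444, 177 and 1100 normalized counts in Ctrl and 599, 4602, 6311 and 13364 in AngII mice. 3 AngII mice lay above all controls and AngII 1 lay among them (log2 fold change 2.95, standard error 0.80, corrected 2.45). The uncorrected value was 2.25 without AngII 4, and 1.69 without AngII 3 and AngII 4, short of an unadjusted p of 0.05. Runx2, the transcription factor of osteoblasts, had 43.4, 23.3, 32.4 and 39.5 in Ctrl and 67.2, 72.9, 90.1 and 139 in AngII mice, without overlap at low counts (1.41 and, corrected, 1.5). Without AngII 3 and AngII 4 its uncorrected value was 1.01, also short of an unadjusted p of 0.05. Bmp2, a ligand that drives bone formation, had 1311, 2182, 1212 and 2119 in Ctrl and 1333, 2540, 5713 and 10290 in AngII mice, overlapping in AngII 1 (1.54 and 1.82), and it was 0.18 without AngII 3 and AngII 4.

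In the TGF-beta list 4 of 22 genes were higher and 2 lower, and in the BMP list 3 of 17 higher and 1 lower. Inhba, the subunit of activin A, had 5701, 4399, 6919 and 12476 normalized counts in Ctrl and 20557, 21747, 25873 and 34538 in AngII mice. The groups did not overlap in either form (1.80 and 1.09). Among the other ligands Tgfb2 had 1.03 and 0.79, with overlap. Of receptors, Bmpr2 was higher without overlap before the correction (1.19 and 0.53), and of extracellular inhibitors the activin antagonist Fst had 1.03 and 1.19. Among 24 WNT genes 3 were higher and 3 lower, with medians of -0.36 and -0.04. They included the ligand Wnt5b, lower (-1.54 and -1.17), and the nuclear effector Tcf7, higher (1.12 and 1.60), each without overlap in both forms. Among 18 Notch genes 3 were higher and 3 lower. The ligand Jag1 had 0.74 and 0.76, the receptors Notch1 and Notch4 had -0.57 and 0.57 (-0.22 and 1.14 corrected), and the target Heyl was lower at -1.53, or -0.82 without Ctrl 1.

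Among the stress-related lists, 3 had medians nearer 0 after the correction and 1 had a median farther from it. Of 16 immediate early genes 9 were lower and 1 higher, and 5 and 1 with the correction, with medians of -0.61 and -0.18. Fos had 2501, 3178, 2230 and 2815 normalized counts in Ctrl and 1559, 1834, 1024 and 1125 in AngII mice, without overlap in either form (-0.95 and -0.77), as for the growth inhibitor Btg2 (-1.11 and -1.05). Fosl2, by contrast, had higher values, without overlap after the correction (0.49 and 0.88). Of 22 hypoxia and glycolysis genes 9 were lower and 0 higher, and 2 and 0 with the correction, with medians of -0.44 and -0.17. Adm, the vasodilator peptide adrenomedullin, had 1086, 2212, 1222 and 499 in Ctrl and 368, 307, 345 and 208 in AngII mice, without overlap in either form (-2.02 and -1.89). Of 22 genes of NADPH oxidases and antioxidant defense 3 were higher and 8 lower, and 2 and 4 with the correction, with medians of -0.16 and -0.26. Cyba, the p22phox subunit, was lower (-1.07 and -0.61), as was heme oxygenase Hmox1 (-0.79 and -0.52), and sulfiredoxin Srxn1 was higher (0.67 and 0.91, or 0.31 uncorrected without AngII 4). Of 20 heat shock and unfolded protein genes 5 were higher and 3 lower, and 4 and 0 with the correction, with medians of -0.09 and -0.03. The chaperones of the endoplasmic reticulum Hspa5 (0.60 and 0.22) and Dnajb9 (1.14 and 0.46) separated the groups upwards before the correction, and Dnajb9 also after it.

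Genes were also named by a rule over all protein-coding genes, as those without overlap both with and without the GC correction and with the smallest p in the corrected fit. Of the higher ones Krt10, a keratin of epithelia, had 378, 432, 359.8 and 502 normalized counts in Ctrl and 713, 1019.6, 1625 and 1178 in AngII mice (log2 fold change 1.44, corrected 1.76, standard error 0.30). Azin1, the antizyme inhibitor of polyamine metabolism, had 4330, 3989.6, 3612 and 4873 in Ctrl and 7733, 11792, 12371 and 25369 in AngII mice (1.77 and 1.06). The lowest AngII mouse lay above the highest control by more than the whole range of the controls in both genes. The others were Ikbkg, the NEMO subunit of the kinase upstream of NF-kappaB (1.12 and 0.99), Rpl39, a ribosomal protein (1.56 and 1.34), Slc30a4, a zinc transporter (1.77 and 1.26), Lars2, the mitochondrial leucyl-tRNA synthetase (1.37 and 1.54), Col4a3, Syncrip (1.45 and 1.23) and Hnrnpk (0.89 and 0.99), both RNA-binding proteins, Mospd2 (1.30 and 0.74), Prkca, protein kinase C alpha (0.98 and 0.83), and Tug1.

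Lars2 had large counts, with 107376, 162184, 107096 and 143995 normalized counts in Ctrl and 228111, 246569, 394122 and 475832 in AngII mice. It shares a stretch of 55 bases with the noncoding gene Gm15564, which had 10254, 15050, 9336 and 13643 in Ctrl and 22956, 26766, 56480 and 73403 in AngII mice, a like order of mice (1.90 and 1.91). How reads of the shared stretch were placed is not given in the sources used here. Whether the counts of Lars2 come from its mRNA was not tested. Tug1 is annotated with a short canonical transcript of 63.0% GC, of which 55.3% is shared with Morc2a. Its corrected value of 1.98 was 0.81 when the GC content of all annotated exons was used, against 1.34 uncorrected. Parts of the transcripts of Syncrip (39.1%), Hnrnpk (36.8%) and Rpl39 (19.3%) are also shared with other genes.

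Of the lower genes under this rule, Ucp1, Ccl12, Ccl8 and Adm are described above. Itpk1, an inositol phosphate kinase, had 2002, 1591, 1308 and 787 normalized counts in Ctrl and 448, 524, 383 and 156 in AngII mice (-1.90 and -1.45). Sgk1, a kinase induced by mineralocorticoids and glucocorticoids, had 7742, 7549, 7985 and 5828 in Ctrl and 4431, 3831, 5233 and 3971 in AngII mice (-0.74 and -0.91). Both groups were compact in Sgk1, while the lack of overlap in both forms was required by the rule. The remaining ones were Bex3 (-0.86 and -1.30, or -0.60 uncorrected without Ctrl 1), Tob2, an antiproliferative gene (-1.35 and -1.09), Cib2 (-1.65 and -1.26), the spliceosome helicase Snrnp200 (-0.61 and -0.76), Cox16 (-0.80 and -1.60), of whose transcript 88.1% is shared with the read-through gene S2bpcox16, and Ear2, an eosinophil-associated ribonuclease listed at 0 in 3 AngII mice, of which 75.8% is shared with its relatives. The counts of Ear2 were low, and it passed the count filter only through mice outside the AngII group. By the smallest p without the correction the rule also named Zfp51 (1.74 and 0.95) and the cohesin release factor Wapl (1.19 and 0.69) as higher and the exonuclease Rexo4 as lower (-0.97 and -0.71).

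**Figure D5:**
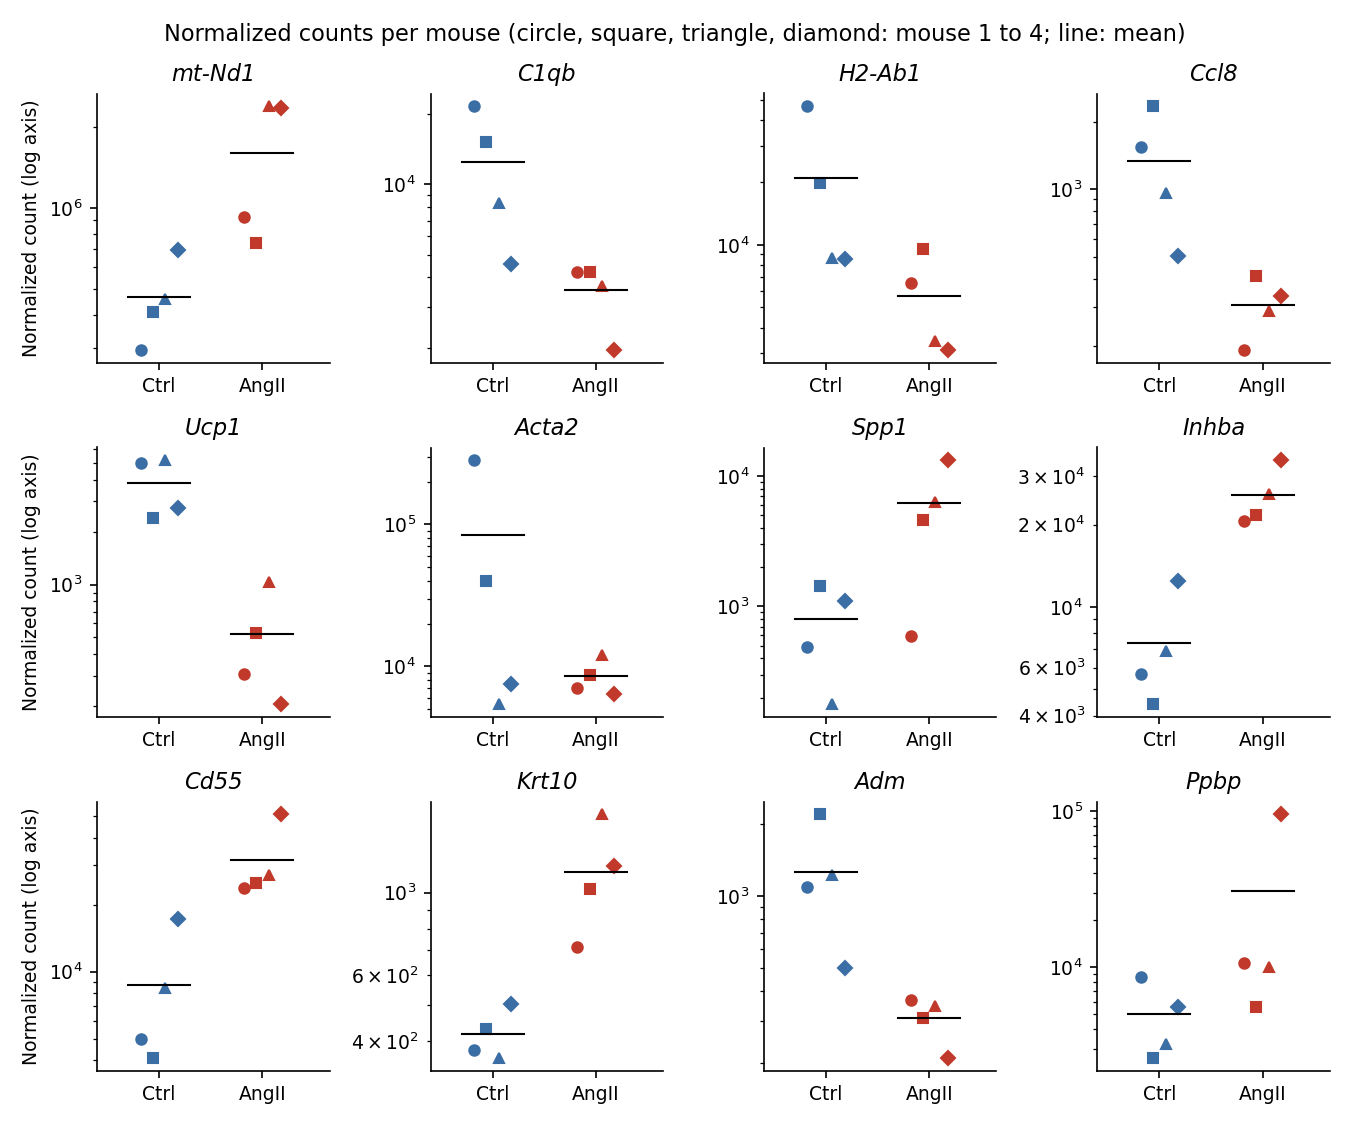
Normalized counts (vertical log axis) of 12 named genes in the 4 Ctrl and 4 AngII mice, with 1 symbol per mouse number and a line at the group mean. Ucp1, Inhba, Krt10 and Adm show no overlap, Acta2 is spread by Ctrl 1 (284730) and Ppbp by AngII 4 (96502).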

How the data were processed

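Aortic valves of single mice were profiled by bulk RNA-seq. According to the labels and methods, the authors checked reads with FastQC v0.12.1, trimmed them, used HISAT2 for alignment to GRCm39 and featureCounts for gene counts. The deposited table is named as normalized, but holds raw read counts as whole numbers, and even counts were more frequent than odd ones. The annotation release and strand setting are not given in the sources used here.

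Groups were taken from the labels. Genes averaging 10 or more counts in the 14 mice were tested with edgeR 4.0.16 (R 4.3.3) in a quasi-likelihood fit of all 4 groups with TMM scaling. A call needed a Benjamini-Hochberg adjusted p below 0.05 and a log2 fold change beyond 0.5 either way. Printed per-mouse values are counts scaled by the TMM library sizes. For the GC correction, a loess curve (span 0.3, degree 1) of each library's log2 deviations on the GC content of the canonical transcript (GENCODE M39) was centred and passed to edgeR as an offset. GC content was known for 19043 genes, and 102 tested genes were left out of that fit. Of the table's gene IDs 618, with 0.0361% of counts, had no entry in that annotation. Steps were tested on simulated data. Differences between libraries were tested with two-sided exact permutation tests. The widest Wilson 95% interval of a mitochondrial share spanned 0.0373 percentage points, and covers counting error only.

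The genes and lists were chosen with earlier results of these data known. Genes are named from 39 lists (555 of 580 listed genes tested), as the 12 higher and 12 lower protein-coding genes without overlap in both forms with the smallest GC-corrected p, as the 5 higher and 5 lower without overlap with the smallest uncorrected p, and as up to 3 most abundant genes of a class, of which 1 is not reported here. Col5a2, Col15a1, H2bc21, mt-Tp, mt-Nd6 and Mir703 were described after their values were seen. The alternatives were DESeq2 1.42.0, its size factors, other filters, loess settings and exon sets, halved counts, 8 mice only, a replicate block, and leaving out mice. AngII 3 and AngII 4 together, all annotated exons and uncentred curves were chosen after the data were seen.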

Additional observations from a re-analysis of the deposited data

Results flagged for a closer look

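In a group of 4 mice, a value was listed when its gap to the nearest mouse exceeded Dixon's 95% critical share of the group's range. Of 328 group values tested 29 did so. Chance gives about 1 in 20 only for independent, normally distributed values. These were mostly unlogged counts, many from genes that were high in the same mouse, so no excess over chance can be read from the 29. Ctrl 1 and AngII 4 held 10 each.

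Among the controls, Ctrl 1 was high in the smooth muscle genes Acta2 (284730 normalized counts), Myh11 (78076) and Cnn1 (36843), and in Sost (12039), Heyl (9717), Bex3 (4465), Gp9 (2615), Plin1, a coat protein of fat droplets (903.2), and Slc6a4 (324.5). Melanocyte genes took 0.0481% of its nuclear counts. Ctrl 4 was high in mt-Tn (389.7), Dnajb9 (2747) and Malat1 (22839), Ctrl 3 in the endothelial gene Vwf (17958), and Ctrl 2 in Mir6236 (3451) and in mesothelial genes, at 0.0742% of nuclear counts.

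Among the AngII mice, AngII 4 was high in the platelet genes Ppbp (96502), Pf4 (49338), Itga2b (35683) and Gp9 (6644), which together took 0.364% of its nuclear counts, and in Cd55 (51151), H1f2 (19191), Srxn1 (7637), Slc6a4 (2918) and Adamts9 (691.5). AngII 3 was high in Adipoq (574.4) and AngII 2 in melanocyte genes, at 0.0239% of nuclear counts. AngII 1 was low in the proteoglycan gene Lum (86154).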

How the results depend on the processing

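The edgeR count of 0 called genes was 123 with no filter on low counts, 975 at a minimum mean count of 100 and 2648 (1751 higher, 897 lower) with DESeq2, and 0 to 1726 when a mouse was left out. With the GC correction it was 533 with DESeq2 and 0 otherwise. The 4815 genes at an unadjusted p under 0.05 became 2549 with the GC correction, 3178 to 5663 when a mouse was left out (lowest without AngII 4, highest without AngII 1) and 1651 without AngII 3 and AngII 4. The corrected 2549 became 1662 to 2950 when a mouse was left out, 948 without AngII 3 and AngII 4, and 2767 with uncentred curves, which split them into 2142 higher and 625 lower. The 2876 genes without overlap became 1544 with the GC correction, 1563 with the GC content of all annotated exons, 3244 to 4916 when a mouse was left out (highest without AngII 1, 4665 without Ctrl 4) and 4509 without AngII 3 and AngII 4, where fewer mice can overlap.

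The difference in mitochondrial share, 12.2 points, was 5.85 (exact permutation p = 0.0857) with the GC correction and 9.61 to 14.8 when a mouse was left out, and the GC slope difference of -0.63 was -0.040 (exact permutation p = 0.0571) and -0.75 to -0.49. Leaving out a control gave an exact permutation p = 0.0857 for the share and p = 0.0571 for the slope. Leaving out an AngII mouse gave an exact permutation p = 0.0286 for both, except p = 0.0571 for the slope without AngII 4.

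The log2 fold change of Dcn was -0.55 with the GC correction and -0.60 with all annotated exons, that of Emcn -0.048 with all annotated exons, and that of Pf4 -0.029 without AngII 3 and AngII 4, all with a turned sign. The cause was not tested. Of the 144 named genes 11 others took both signs, without passing the unadjusted threshold as reported or with the sign turned (Ace, Adgre1, Col1a1, Col3a1, Gnas, Htr2b, Lyve1, Mrc1, Notch1, Postn and mt-Tp). With the GC correction 15 named genes did so when mice were left out. Without AngII 3 and AngII 4, 39 of the 144 named genes kept their direction but no longer reached an unadjusted p under 0.05. With the GC correction this held for 51.

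A replicate block gave 4431 genes at an unadjusted p under 0.05, and 2167 with the GC correction, with 0 called either way. Deviations of same-numbered Ctrl and AngII mice correlated at -0.0587 to 0.0398, and those of other pairs at -0.0676 to 0.0961. Such values cannot show whether same-numbered mice were housed or processed together, which the labels do not say. Of the 60 list and class medians 18 moved by more than the mouse-to-mouse spread with the GC correction and 15 without AngII 3 and AngII 4.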
